A study of Mus musculus with 233 samples.

Results

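The repressor virus nZFP was compared with the control virus DBD in the striatum of heterozygous zQ175DN mice injected at 2 months and collected at 6 months of age (the paradigm 2M_6M), that is after 4 months of treatment. The comparison rests on 14 of the 233 bulk RNA-seq libraries of the series, 8 from zQ175 nZFP striata and 6 from zQ175 DBD striata. All gene entries were kept and the 6 vector entries were set aside. The library labelled zQ175 DBD replicate 3 was left out because its long genes had low counts, with a length index (the median log2 deviation from the mean library of long genes minus that of short genes) of -1.752, against -0.126 to 0.128 in the nZFP libraries and -0.176 to 0.16 in the other DBD libraries. Of 41129 gene entries, 15722 passed the filter on low counts and were tested.

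In the zQ175DN knock-in line, exon 1 of mouse Htt is replaced on 1 allele by human HTT exon 1 with about 190 CAG repeats, and the other allele is normal. Both viruses were AAV2/2+1 with the neuronal human synapsin promoter (hsyn). nZFP carried ZFP30645, an HA-tagged repressor whose zinc fingers were designed against long CAG tracts, and DBD carried the same protein without its DNA-binding domain. The control virus Estop held a stuffer that encodes no protein. The zQ175 Estop group (8 libraries) and the wild-type (WT) groups nZFP (8), DBD (8) and Estop (7) of the same paradigm served for comparison. Each hemisphere was injected with 1 virus and sequenced by itself, so that zQ175 nZFP and DBD replicates 5, 6 and 7 are the opposite hemispheres of the same 3 mice. Both sexes were present in both groups. The tissue is whole striatum: fewer cells of a type and less RNA per cell cannot be told apart, and neurons that took up no virus are included.

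Huntington's disease is caused by expansion of the CAG repeat in HTT exon 1, which encodes a polyglutamine stretch. The striatal medium spiny neurons, GABAergic projection cells that receive dopamine and cortical glutamate, are the most affected cells. Knock-in striatum is known to lose transcripts of medium spiny neuron identity and to gain transcripts that Polycomb complexes normally keep silent, among them homeobox genes and clustered protocadherins. Expanded Htt alleles are also known to yield a short transcript that ends within intron 1.

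Gene counts per library ran from 28591746 to 40777104, and vector entries held at most 0.292% of the counts. The entry for ZFP-30645 had 364.5 to 934.4 reads per 1000000 gene counts in nZFP libraries (median 724) and 4.582 to 17.7 in DBD libraries (median 7.857), without overlap. WPRE, a viral RNA element of expression vectors, stood at 654.2 to 1560 reads per 1000000 (median 1269) in nZFP libraries and 792.2 to 2917 (median 2563) in DBD libraries, and the levels differed (two-sided exact permutation p = 0.018). The library labelled WT DBD replicate 6 had 59.2 WPRE reads per 1000000, within the 45.4 to 81.53 of zQ175 Estop libraries; WT results are given with it and, where it moved a count, without it. Medium spiny neuron markers were abundant in all 14 libraries, with a summed level of 22849.5 to 27284.1 CPM in nZFP and 16986.5 to 20902.3 CPM in DBD libraries (counts per 1000000, scaled by TMM). Of the defining markers of other cells, Cd3e of T cells was at 0 in all 8 nZFP and in 5 of 6 DBD libraries, and the cortical marker Slc17a7 stood at 1.34 to 2.23 CPM in nZFP and 1.45 to 2.12 CPM in DBD libraries. Genes of ependymal cells and choroid plexus summed to 22.12 to 27.97 CPM in nZFP and 25.91 to 54.62 CPM in DBD libraries, and their part in the results was not tested.

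Against DBD, Htt under nZFP was lower per unit of transcript length, where the length behind each read was greater, and did not pass in CPM. In CPM, total Htt (ENSMUSG00000029104, chromosome 5, 34761721 to 34912534, GRCm38), which sums both alleles and all cells, stood at 68 to 88.9 (median 80.3) in nZFP libraries and 82.1 to 101 (median 91.7) in DBD libraries. The groups overlapped, and the difference of -0.19 in log2 fold change (SE 0.09, edgeR adjusted p = 0.144) did not pass. Against Estop, the other control virus, whose zQ175 libraries averaged 115.3 ± 11.0 CPM (SD, n = 8), the nZFP value was -0.53 and passed (edgeR adjusted p = 3.5e-06). It also passed against DBD in the fit of the 3 mice with both viruses (-0.25, adjusted p = 0.0235) and when the length index of each library was added to the fit (-0.20, adjusted p = 0.0024). With the mouse as a block in the fit of all 6 groups, Htt had a value of -0.265 against DBD and did not pass (edgeR adjusted p = 0.061). All 3 mice with both viruses had less Htt in the nZFP hemisphere. The comparison in the deposited TPM, which divide by transcript length, was not planned. In TPM, Htt stood at 11.45 to 15.65 (median 14.05) in nZFP libraries and 17.53 to 23.66 (median 19.58) in DBD libraries. These groups did not overlap, and the mean was 69.1% of DBD (two-sided exact permutation p = 0.000666, the smallest that 8 against 6 libraries can give). In WT striata the nZFP mean was 109% of the DBD mean (exact permutation p = 0.228).

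In a measure chosen after the data were seen, the length behind each Htt read, the expected count over the TPM of a library relative to the median gene, set the zQ175 groups apart. Expressed as a percent of the WT Estop median, it was 91.07 to 97.85 (median 94.84) in zQ175 nZFP libraries, 77.09 to 82.07 (median 78.52) in zQ175 DBD and 78.34 to 90.03 (median 84.92) in zQ175 Estop libraries. The 3 WT groups lay between 97.71 and 101.5. Every nZFP library was above every DBD and Estop library of zQ175. The nZFP mean was 120% of the DBD mean (two-sided exact permutation p = 0.000666). In TPM the count is divided by length, so the TPM result and this one are not separate. The zQ175 Estop mean was 84.6% of WT Estop (p = 0.000311, exact permutation). Among 13709 genes with at least 10 counts in every library, 25 (0.182%) had a length per read above DBD in all nZFP libraries, and Htt was 1 of them. Its log2 change of 0.261 was the 10th largest of all, against a median of 0.00226. Which transcripts carry this change was not analysed here, since the tables give 1 value per gene.

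**Figure D1:**
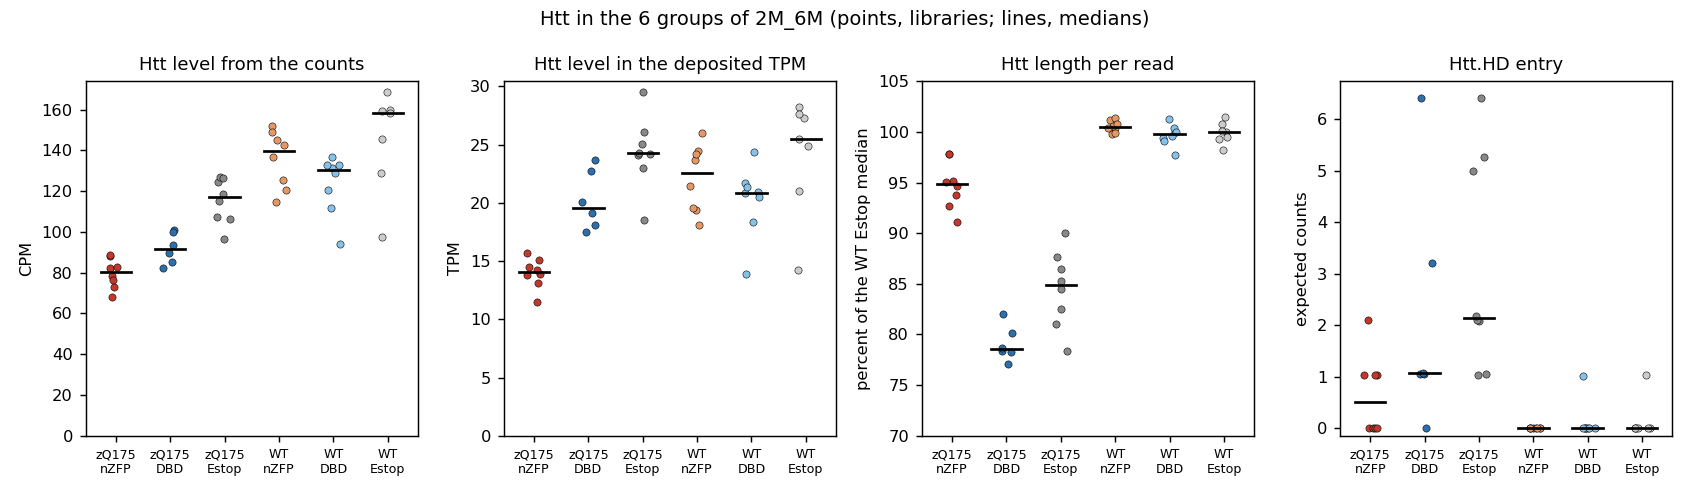
Htt in the 6 groups, from left to right zQ175 nZFP, DBD and Estop and WT nZFP, DBD and Estop, as CPM, as deposited TPM, as length per read in percent of the WT Estop median (axis from 70) and as the expected count of the Htt.HD entry; points are libraries and lines are medians. In TPM the 8 zQ175 nZFP libraries lie between 11.45 and 15.65, all below the 6 zQ175 DBD libraries, and in length per read all above them. The TPM are counts divided by length, so these panels are not separate results.

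An added entry, Htt.HD, drew reads almost only in zQ175 libraries and very few there; the labels do not say what it stands for. It held 0 to 2.104 expected counts in nZFP libraries (mean 0.648, with 4 of 8 at 0) and 0 to 6.422 in DBD libraries (mean 2.14, with 1 of 6 at 0). The nZFP level in reads per 1000000 gene counts was 30.86% of the DBD level, which did not pass (two-sided exact permutation p = 0.0786). DBD replicate 7 had the 6.422 counts, and without it the level was 49% (exact permutation p = 0.183). Without nZFP replicate 6 or DBD replicate 6 it was 20.8% or 25.7% (exact permutation p = 0.0233 and 0.0249). The 9 tested polyglutamine disease genes, Htt among them, had 0 members called by edgeR and 0 by DESeq2, and 3 at an unadjusted p under 0.05. Atxn7 had a value of -0.26 (adjusted p = 0.14). With the mouse as a block 1 member was higher and 1 lower. Over all genes tested 7.47% were higher and 6.3% lower. Among 14 tested genes beside Htt on chromosome 5, 4 were higher and 0 lower, and with the block 4 and 1. They included the cytoskeletal protein gene Add1, with 564 to 631 CPM in nZFP and 458 to 529 CPM in DBD libraries (log2 fold change 0.30), and the adrenergic receptor gene Adra2c (0.41).

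Across the transcriptome, 2165 genes passed, 13.8% of those tested, with 1174 higher (7.47%) and 991 lower (6.3%) in nZFP. Most differences were small: 944 of the higher and 775 of the lower genes changed by under 0.5 on the log2 scale, and 59 in each direction by over 1. Levels in nZFP and DBD libraries did not overlap for 839 of all genes tested (5.34%), with nZFP above for 511 (3.25%) and below for 328 (2.09%). In the 3 mice with 1 hemisphere of each virus, 936 of the higher and 822 of the lower genes differed in the same direction in every mouse. The libraries of these mice are among those behind the calls, so this agreement is not independent of them. With the mouse as a block, 1382 genes passed (8.79%), 816 higher (5.19%) and 566 lower (3.6%), and 745 and 480 of the calls above were among them.

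The genes with the largest rises were mostly low-abundance transcripts that were lower in zQ175 than in WT striatum. Abhd11os, a noncoding RNA enriched in striatum, had 11.7 to 17.8 CPM (median 15.6) in nZFP libraries and 1.80 to 4.18 CPM (median 2.38) in DBD libraries, with a log2 fold change of 2.49 (SE 0.17, edgeR adjusted p = 8.8e-15). Its groups were far apart, and WT Estop striata averaged 18.3 CPM. Ddit4l, an inhibitor of mTOR signalling, had 18.3 to 26.3 CPM in nZFP and 6.69 to 9.09 CPM in DBD libraries (1.51, SE 0.10, adjusted p = 9.1e-16). Every nZFP library again lay above every DBD library. Fst, which encodes the activin-binding protein follistatin, had 2.55 to 4.38 CPM in nZFP and 0.897 to 1.59 CPM in DBD libraries (1.42, SE 0.15, adjusted p = 2.2e-09), and Inhba, an activin subunit, had 8.30 to 11.7 CPM in nZFP and 3.73 to 5.39 CPM in DBD libraries (1.11, adjusted p = 2.9e-09). The ligand genes Wnt4 (1.62) and Nrtn, the neurotrophic factor neurturin (1.30), also rose without overlap. So did Sec14l3 (1.94), Tmem114 (1.91), Tmprss6 (1.80), Cpne9 (1.74) and the fatty acid receptor gene Ffar3 (1.62), while the groups of Vwa7 (1.73) overlapped. Inhba is named as a list member. The 12 genes with the largest rises are the other genes above and Igha. Of these, 10 differed from the WT response in the interaction of virus and genotype, a test that called 630 genes (4.01%). Their rise in zQ175, by which they were chosen, is part of that test, so this count is no result about them. Of the 12 genes, 11 were lower in zQ175 than in WT striata under Estop, beside 14.7% of all genes tested.

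The exception was Igha, an immunoglobulin heavy chain gene of plasma cells. It had 30.9 CPM in nZFP replicate 4, 0.0743 to 2.32 CPM in the other nZFP libraries and 0 to 0.139 CPM in DBD libraries. Its log2 fold change was 6.32 (SE 1.42, adjusted p = 0.0015) and 4.24 without nZFP replicate 4 (adjusted p = 0.0069), and 4.09 with the mouse as a block (adjusted p = 0.031). Genotype made no called difference to it. Among other B-cell genes, Igkc had a log2 fold change of 1.56 (adjusted p = 0.28) and Cd79a of 1.22 (adjusted p = 0.066), with means of 0.335 CPM in nZFP and 0.14 CPM in DBD libraries.

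**Figure D2:**
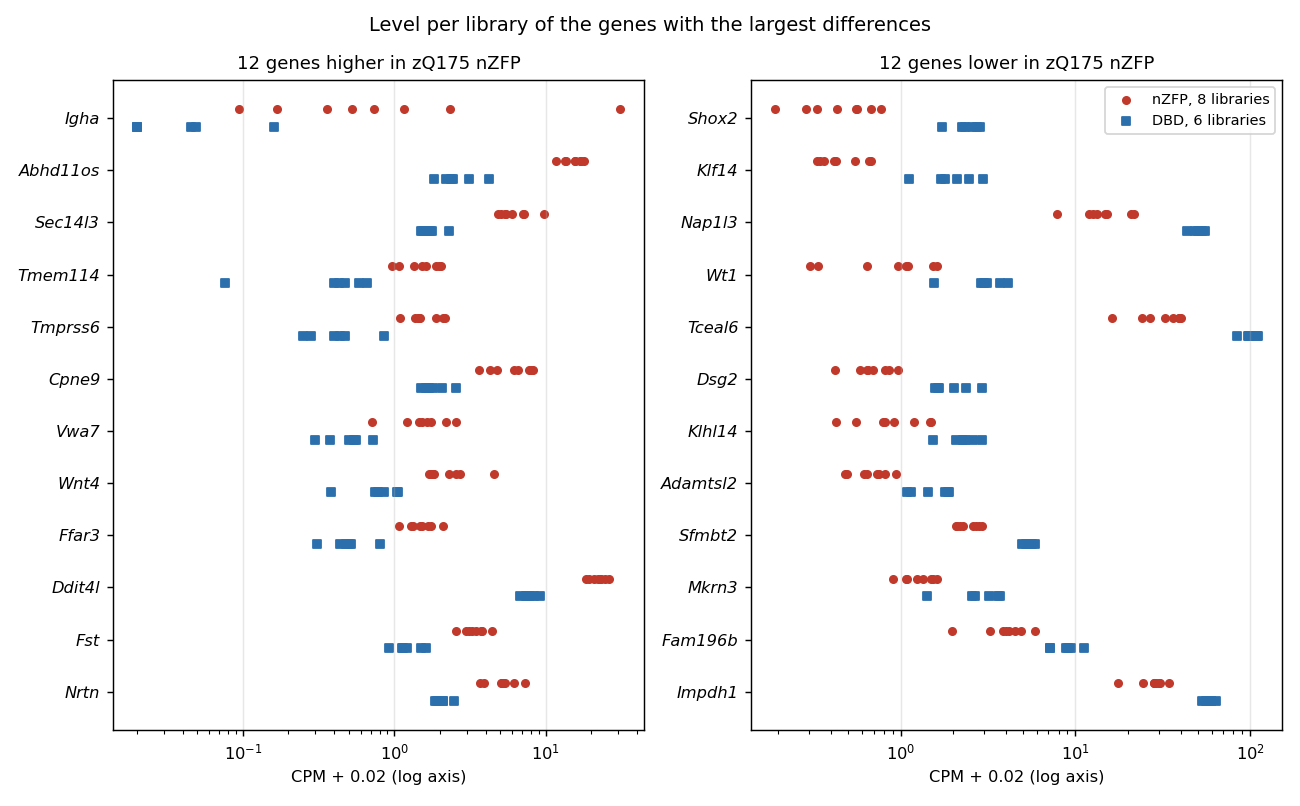
Level of the 12 genes with the largest rises (left panel) and the 12 with the largest falls (right panel) in each library, as CPM plus 0.02 on a log axis, with nZFP libraries drawn above DBD libraries for each gene. The nZFP and DBD points are clear of each other for 10 genes in each panel, beside 5.34% of all genes tested. The genes were chosen by their differences in these same libraries, so this separation is no independent support.

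Falls of the largest size came from genes of different kinds. Of the 12 genes with the largest falls, 7 were higher in zQ175 than in WT striata under Estop, beside 14.1% of all genes tested. The other 5 were not called for genotype and were also lower under nZFP in WT striata, beside 0.369% of all genes. Among these 5, Klf14 and Mkrn3 were not lower against Estop, with log2 fold changes of 1.05 and 0.043 for nZFP minus Estop in zQ175. Of the first kind, Shox2, a homeobox factor that is nearly silent in normal striatum, had 0.172 to 0.755 CPM in nZFP and 1.71 to 2.815 CPM in DBD libraries (log2 fold change -2.38, SE 0.24, edgeR adjusted p = 5.7e-10). WT groups averaged 0.08 to 0.144 CPM. Wt1, a zinc finger factor of kidney and gonad development, had 0.283 to 1.58 CPM in nZFP and 1.53 to 4.09 CPM in DBD libraries (-1.66, SE 0.27, adjusted p = 1.1e-05), and the ranges met only in DBD replicate 4 and nZFP replicate 7. Sfmbt2, a Polycomb group gene, had 2.06 to 2.89 CPM in nZFP and 4.91 to 5.84 CPM in DBD libraries (-1.14, adjusted p = 9.1e-09). Dsg2 (-1.55), Klhl14 (-1.28), Adamtsl2 (-1.16) and Fam196b (-1.10) fell likewise without overlap.

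Most medium spiny neuron identity genes rose. Of 31 tested members of the list, 25 were higher and 1 lower, beside 7.47% and 6.3% of all genes tested. Their median log2 fold change was 0.44, beside a median of -0.015 over all genes tested. Under Estop, 27 of the 31 were lower in zQ175 than in WT striata (where 14.7% of all genes were lower). Ppp1r1b, which encodes the dopamine-regulated phosphatase inhibitor DARPP-32, averaged 2917 ± 252 CPM in nZFP and 1929 ± 315 CPM in DBD libraries (SD, n = 8 and 6). Its log2 fold change was 0.59 (adjusted p = 4.9e-07). Adcy5, the main striatal adenylyl cyclase, had 1694 to 2016 CPM in nZFP and 1119 to 1338 CPM in DBD libraries (0.64, SE 0.05, adjusted p = 3.8e-13). The phosphodiesterase gene Pde10a averaged 1476 ± 166 CPM in nZFP and 946 ± 83.5 CPM in DBD libraries (0.65), and the sodium channel subunit gene Scn4b had 1213 to 1682 CPM in nZFP and 530.3 to 773.4 CPM in DBD libraries (1.20, SE 0.10, adjusted p = 5.4e-12). Itpr1, the endoplasmic reticulum calcium release channel, had 1455 to 1901 CPM in nZFP and 864 to 1127 CPM in DBD libraries (0.82). The members that did not pass included the cannabinoid receptor gene Cnr1 (0.48, adjusted p = 0.054) and Tmem158 (0.36, adjusted p = 0.10). Arpp21, a cAMP-regulated phosphoprotein of the same cells, was the member that fell and is described with the genes lower in both genotypes.

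Genes of the indirect pathway, whose neurons carry dopamine D2 and adenosine receptors and enkephalin, and of the direct pathway were counted apart, and the difference between these lists was not tested. Over all genes tested 7.47% were higher and 6.3% lower. Of 11 tested indirect pathway genes 8 were higher and 0 lower (median 0.40). Of 13 direct pathway genes 3 were higher and 2 lower (median 0.03), or 3 and 1 with the mouse as a block. The lists also differed by genotype under Estop. In zQ175 minus WT, 0 indirect pathway genes were higher and 7 lower (median -0.52), and 4 direct pathway genes were higher and 4 lower (median 0.02). Of all genes tested 14.1% were higher and 14.7% lower there. Penk, the enkephalin precursor, had 976.9 to 1394 CPM in nZFP and 529.5 to 710.2 CPM in DBD libraries (log2 fold change 0.91, SE 0.09, adjusted p = 1.8e-10). Adora2a, the adenosine receptor of these cells, had 469 to 577 CPM in nZFP and 260 to 366 CPM in DBD libraries (0.79), and Drd2 averaged 183 ± 16.1 CPM in nZFP and 127 ± 19.2 CPM in DBD libraries (0.53). All nZFP libraries were above all DBD libraries for Penk and Adora2a. On the direct side, Drd1, the D1 receptor, had 209 to 234 CPM in nZFP and 154 to 180 CPM in DBD libraries (0.44, adjusted p = 1.7e-08), and the muscarinic receptor gene Chrm4 rose by 0.66. Tac1, the substance P precursor, fell, with 182 to 229 CPM in nZFP and 210 to 285 CPM in DBD libraries (-0.25, adjusted p = 0.012, and 0.11 with the mouse as a block). Tac1 was not called for genotype (0.09). The lowest value of the direct list was that of Stmn2 (-0.51, and -0.50 with the mouse as a block). Stmn2 is also in the pan-neuronal list and was higher in zQ175 than in WT striata under Estop (0.85).

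Signalling and excitability genes of these neurons included many that rose. In the list of striatal cAMP signalling 16 of 29 members were higher and 1 lower, among calcium-binding proteins 19 of 29 and 1, among potassium channels 14 of 28 and 0, and among glutamate receptors and their scaffolds 13 of 38 and 0. Kcnh3, a voltage-gated potassium channel, had 163 to 206 CPM in nZFP and 121 to 145 CPM in DBD libraries (0.49, SE 0.05, adjusted p = 1.8e-10), and the inward rectifier gene Kcnj4 rose by 0.36. Camk4, a calcium-dependent kinase, had 473 to 626 CPM in nZFP and 334 to 405 CPM in DBD libraries (0.61), and the metabotropic glutamate receptor genes Grm5 and Grm4 rose by 0.46 and 0.39. Calcium channels held 8 of 25 members higher and 2 lower, sodium channels 2 of 13 and 2, and vesicle release genes 6 of 36 and 2. With the block these counts were 7 and 1, 2 and 1, and 3 and 2. Among vesicle genes Syt2, a calcium sensor of release, had the smallest p (0.80). GABA genes went both ways: of 25 members 3 were higher and 5 lower (median -0.04), and with the block 1 and 4. Over all genes tested 7.47% were higher and 6.3% lower, and with the block 5.19% and 3.6%. Gabrd, the delta subunit of extrasynaptic receptors, rose by 0.45, with 127 to 150 CPM in nZFP and 95.8 to 116 CPM in DBD libraries.

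**Figure D3:**
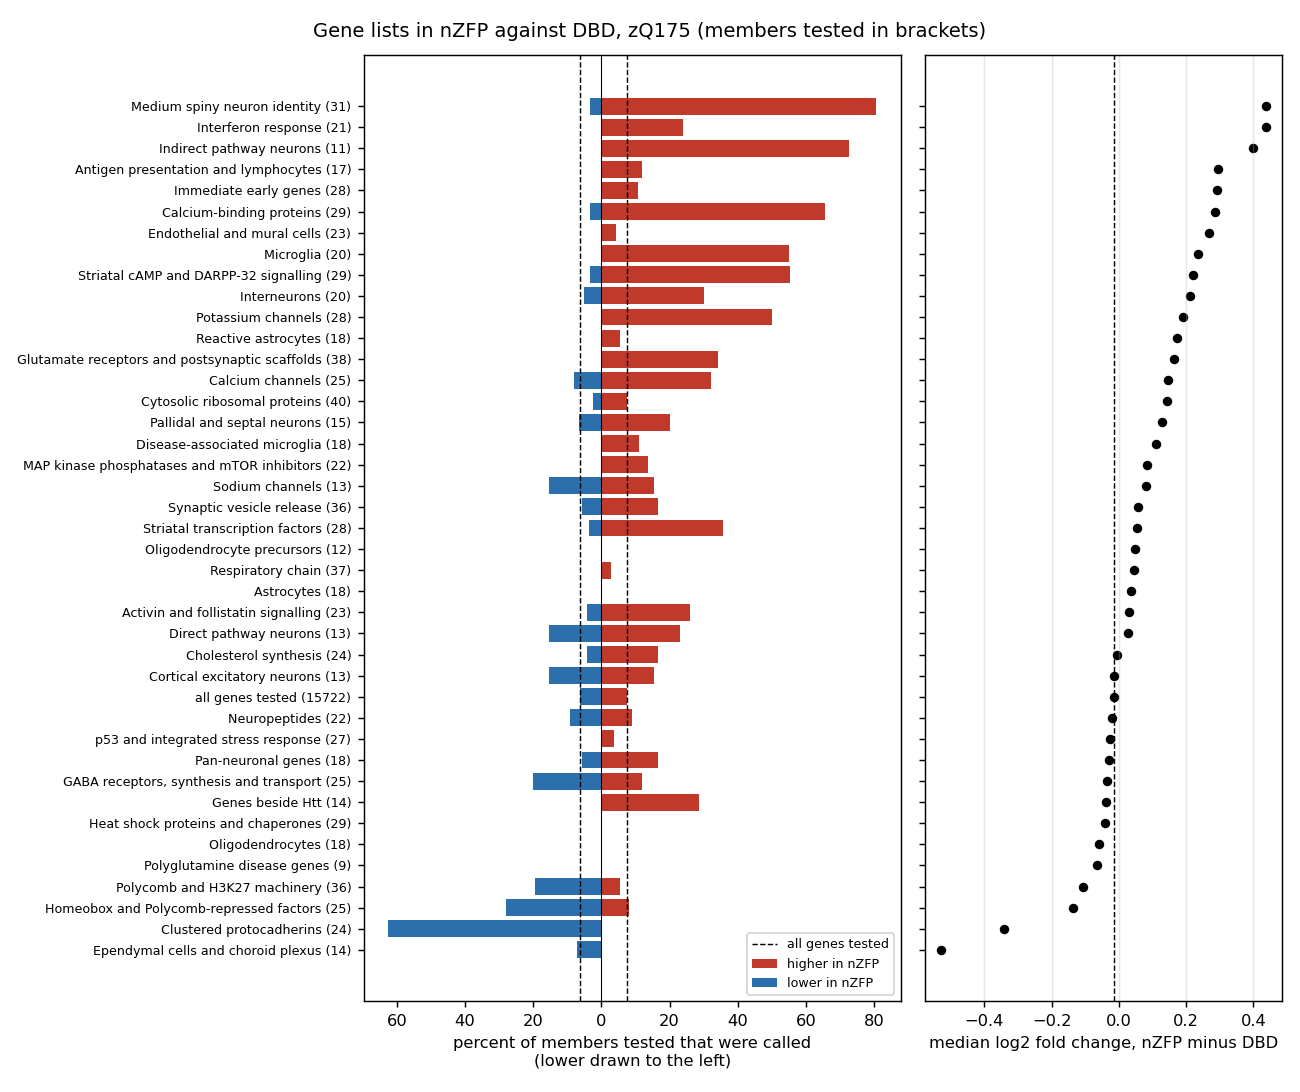
Left, percent of the tested members of each gene list that were called higher (right of 0) or lower (left of 0) in nZFP against DBD, zQ175; right, the median log2 fold change of the list. Dashed lines give all genes tested, of which 7.47% were higher and 6.3% lower, at a median of -0.015; the bars of medium spiny neuron identity (25 of 31 higher) and clustered protocadherins (15 of 24 lower) are the longest in their directions.

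Transcription factors were counted in separate lists, where 7.47% of all genes tested were higher and 6.3% lower, and with the block 5.19% and 3.6%. Of 28 striatal factors 10 were higher and 1, Dach1, was lower. The higher ones included Meis2, with 464 to 506 CPM in nZFP and 385 to 409 CPM in DBD libraries (0.28), Bcl11b (0.36), Foxp1 (0.28), the retinoid receptor gene Rxrg (0.52) and the activity-regulated factor Egr3, with 45.8 to 61.9 CPM in nZFP and 29.7 to 45.3 CPM in DBD libraries (0.57, adjusted p = 2.0e-04). Of homeobox and other Polycomb-repressed factors, 25 of 63 listed genes passed the filter, and 2 were higher and 7 lower. The lower ones included Shox2, Onecut1 (-2.28), Hoxc4 (-1.67), Wt1, Pou4f1 (-1.61) and Onecut2 (-0.52). Onecut1 had 0.0859 to 0.566 CPM in nZFP and 0.993 to 2.09 CPM in DBD libraries. Since genes that are silent in all groups failed the filter on low counts, the tested ones are not the whole list. Genes nearly silent in WT, such as Shox2, could pass it through the zQ175 control groups where they are high. This favours calls of lower, so the count is no result about the list. Of 36 genes of the Polycomb machinery 2 were higher and 7 lower, and with the block 1 and 6; in the homeobox list the block gave 1 and 7. Sfmbt2 and Cbx8 (-0.64) were among the lower ones, and Epop, a subunit that modulates Polycomb repressive complex 2, rose by 1.02, with 10.5 to 17.0 CPM in nZFP and 4.89 to 8.05 CPM in DBD libraries.

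Many clustered protocadherins, cell adhesion genes that give neurons their surface identity, fell. Of 58 listed genes 24 were tested, and 0 were higher and 15 lower, beside 7.47% and 6.3% of all genes tested. Their median was -0.34, with values from -0.77 to 0.64. The summed level of the list overlapped, at 1186 to 1314 CPM in nZFP and 1251 to 1323 CPM in DBD libraries. In the genotype comparison, 18 of the 24 were higher in zQ175 than in WT striata under Estop (where 14.1% of all genes were). With the mouse as a block 12 were lower under nZFP. Members of the beta cluster made up 14 of the 15: Pcdhb20 had 13.9 to 17.3 CPM in nZFP and 25.2 to 30.4 CPM in DBD libraries (-0.74, SE 0.07, adjusted p = 1.2e-11), and Pcdhb9 had 17.8 to 21.7 CPM in nZFP and 23.4 to 29.0 CPM in DBD libraries (-0.40). Both were without overlap. The gamma member Pcdhgc4 had a value of 0.05. Protocadherin genes share near-identical stretches, so that reads may be split between members.

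Immediate early genes, which neurons induce within minutes of activity, depended on the fit. Of 28 tested, 3 were higher and 0 lower (Egr3, Homer1 and Ier5), at a median of 0.29. With the mouse as a block 12 were higher and 1 lower. Over all genes tested 7.47% were higher and 6.3% lower, and with the block 5.19% and 3.6%. Egr2 averaged 10.45 ± 3.32 CPM in nZFP and 3.29 ± 1.52 CPM in DBD libraries, with a log2 fold change of 1.66 (adjusted p = 0.052, and 1.1e-09 with the block). Egr1 averaged 286 ± 52.7 CPM in nZFP and 188 ± 58.5 CPM in DBD libraries (0.61, adjusted p = 0.22, and 4.5e-05 with the block). Arc averaged 96.0 ± 49.3 CPM in nZFP and 77.0 ± 45.3 CPM in DBD libraries, a spread larger than the difference. Among inhibitors of MAP kinase and mTOR signalling, 3 of 22 were higher, Ddit4l and Ptpn7 (1.21) with the smallest p, and 6 were higher and 1 lower with the block. In the list of activin and follistatin signalling, 6 of 23 were higher and 1 lower, and with the block 3 and 2. Neuropeptides gave 2 of 22 higher, Penk and the nociceptin precursor Pnoc (0.76), and 2 lower, Tac1 and the cholecystokinin gene Cck (-0.31), and with the block 1 and 0.

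Astrocyte, oligodendrocyte and oligodendrocyte precursor lists, with 18, 18 and 12 tested members, had 0 members called in either direction with edgeR, also with the mouse as a block, and 0 with DESeq2. At an unadjusted p under 0.05 there were 2, 0 and 0. Their medians were 0.04, -0.06 and 0.05. Microglial genes were higher in 11 of 20 tested members and lower in 0 (median 0.23), beside 7.47% and 6.3% of all genes tested. Their summed level was 952 to 1054 CPM in nZFP and 728.7 to 986.7 CPM in DBD libraries. With the mouse as a block 1 was higher, without DBD replicate 2 there were 5 and without DBD replicate 1 there were 7. Trem2, a lipid receptor of microglia, had 21.3 to 24.7 CPM in nZFP and 15.7 to 22.6 CPM in DBD libraries (0.29, adjusted p = 0.0085, and 0.12 with the block), and C1qb, a complement subunit, had 54.5 to 63.2 CPM in nZFP and 37.7 to 56.2 CPM in DBD libraries (0.27, adjusted p = 0.0085, and 0.052 with the block). Of the 20 microglial genes 15 were lower in zQ175 than in WT striata under Estop, beside 14.7% of all genes tested.

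Interferon response genes were higher in 5 of 21 tested members and lower in 0 (median 0.44), and 0 passed with the block. A single library stood out: Bst2 had 10.7 CPM in nZFP replicate 7 and 2.20 to 5.25 CPM in the other nZFP libraries, against 1.97 to 3.05 CPM in DBD libraries (0.73, adjusted p = 0.037). Irf7, a factor that amplifies interferon, had 1.43 to 7.19 CPM in nZFP and 1.53 to 1.96 CPM in DBD libraries (0.96, adjusted p = 0.0061). Without nZFP replicate 7 the list had 1 member called, as it had without nZFP replicate 1 or without DBD replicate 2 or 5. Ependymal and choroid plexus genes had a median of -0.53 with 1 of 14 lower, Dnah11, a motor protein of cilia; it had 0 to 0.17 CPM in nZFP libraries, against 1.77 CPM in DBD replicate 1 and 0.0557 to 0.676 CPM in the other DBD libraries (-2.06, adjusted p = 0.032, and 0.34 without DBD replicate 1). Striatal interneuron genes were higher in 6 of 20 and lower in 1, and with the block 2 and 0. Nos1, nitric oxide synthase, had 74.6 to 115 CPM in nZFP and 60.5 to 82.6 CPM in DBD libraries (0.46, adjusted p = 0.00098). Cortical excitatory neuron markers gave 2 of 13 higher and 2 lower (with the block 1 and 1), pallidal and septal markers 3 of 15 and 1 (2 and 0) and pan-neuronal genes 3 of 18 and 1 (1 and 1). In reactive astrocytes 1 of 18 was higher, Fbln5 (0.55), in endothelial and mural cells 1 of 23, Tagln of smooth muscle (0.73), in disease-associated microglia 2 of 18 and in antigen presentation and lymphocytes 2 of 17, H2-K1 (0.46) and Cd4 (0.70). With the block these were 1, 1, 0 and 1, and 0 members of these 4 lists were lower in either fit. Over all genes tested 7.47% were higher and 6.3% lower, and with the block 5.19% and 3.6%. Counts of 1 or 2 members in such small lists are no result about them. Cd4 had 79.1 to 122 CPM in nZFP and 51.5 to 74 CPM in DBD libraries. The lymphocyte markers Cd3e, Cd8a and Cd79a did not exceed 0.566 CPM in any of these libraries, and which cells carry Cd4 was not tested.

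Stress and energy lists showed few calls, where 7.47% of all genes tested were higher and 6.3% lower. Heat shock proteins and chaperones had 0 of 29 members called by edgeR and 0 by DESeq2, with 5 at an unadjusted p under 0.05, and the respiratory chain had 1 of 37, Ndufs3 (0.21, adjusted p = 0.046, and 0.25 with the block). In the p53 and integrated stress response list 1 of 27 was higher, Cdkn1a, the cell cycle inhibitor p21, with 9.00 to 16.3 CPM in nZFP and 7.53 to 9.35 CPM in DBD libraries (0.67, adjusted p = 9.5e-05). In WT striata its value was -0.28 (adjusted p = 0.48), and the difference between genotypes was 0.95 (adjusted p = 0.00017). Hrk, a BH3-only activator of apoptosis, had 55.9 to 78.2 CPM in nZFP and 26.7 to 33.9 CPM in DBD libraries (1.10, SE 0.07, adjusted p = 2.3e-16), with a WT Estop mean of 72.5 CPM. Cholesterol synthesis genes gave 4 of 24 higher and 1 lower, among them the sterol-regulated factor Srebf2 (0.37) and the neuronal cholesterol hydroxylase Cyp46a1 (0.33). Among cytosolic ribosomal proteins, 3 of 40 were higher and 1 lower, and with the block 1 and 1. The lower one, Rplp1, had 257 to 410 CPM in nZFP and 408 to 522 CPM in DBD libraries (-0.49, adjusted p = 0.00059) and was lower in WT striata as well (-0.57).

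The response was set against the genotype difference under Estop, zQ175 minus WT, which called 4518 genes (28.7%) and shares no library with nZFP minus DBD, though many Estop libraries are opposite hemispheres of the same mice. Of the 1174 genes higher under nZFP, 816 (69.51%) were lower in zQ175 than in WT striata and 7 were higher. Of the 991 lower under nZFP, 604 (60.95%) were higher in zQ175 and 8 were lower. Seen from the genotype side, 816 of 2306 genes lower in zQ175 (35.39%) rose under nZFP and 604 of 2212 higher genes (27.31%) fell. Over these genes the median repressor difference was 46.28% and 45.83% of the size of the genotype difference, with the sign reversed, beside 43.84% over all genes tested and 41.3% over genes not called for genotype. For the 140 genes lower in zQ175 by over 1 on the log2 scale, 77 rose and 3 fell (median 0.79), and for the 152 genes higher by over 1, 0 rose and 66 fell (median -0.63). Across the 15722 genes, which are not independent, Pearson's r between both differences was -0.49.

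**Figure D4:**
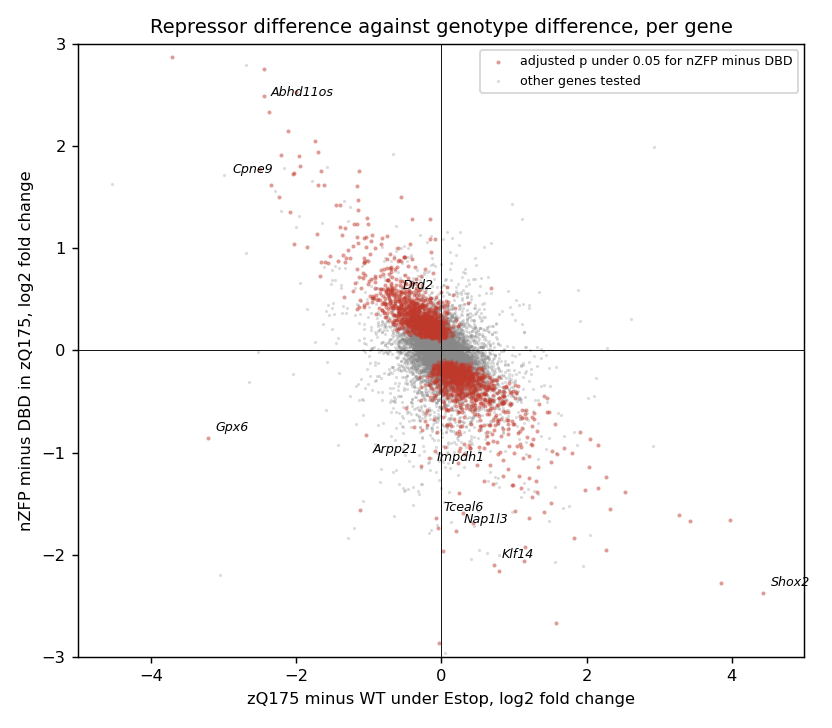
Log2 fold change of nZFP minus DBD in zQ175 against that of zQ175 minus WT under Estop, 1 point per gene tested, red where the repressor difference passed; 12 genes lie outside the axes. The red points run from upper left to lower right, with 816 genes lower in zQ175 and higher under nZFP; Arpp21 and Gpx6 lie in the lower left, and Impdh1, Tceal6 and Nap1l3 near the vertical axis.

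A few genes moved with the genotype difference and not against it. At a mean of at least 1 CPM there were 14 such genes, of which 4 kept the call with the mouse as a block (Dach1, Arpp21, Gm28042 and Nrg2) and 10 did not. They included Arpp21 (-0.83 under nZFP and -1.04 in zQ175), Dach1 (-0.69 and -0.23), the neuregulin gene Nrg2 (-0.48 and -0.28) and the mTOR activator gene Rheb (-0.26 and -0.29, adjusted p = 0.054 with the block), which were lower in both comparisons. Stat5a (0.46 and 0.37) and the purinergic receptor gene P2ry1 (0.61 and 0.68) were higher in both, with adjusted p of 0.073 and 0.25 for nZFP minus DBD with the block. Gpx6, a glutathione peroxidase with a lower mean, was also lower under nZFP, with 0.377 to 0.765 CPM in nZFP and 0.708 to 1.31 CPM in DBD libraries (-0.86, adjusted p = 0.043, and 0.081 with the block), and its genotype difference was -3.21.

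In WT striata the same 2 viruses gave 74 called genes (0.471%), 16 higher (0.102%) and 58 lower (0.369%). Of these, 36 were also lower and 11 also higher in zQ175 striata. The nZFP and DBD libraries of zQ175 did not overlap for 27 of the 36. In all 3 mice with both viruses the nZFP hemisphere was lower for 35. Both counts reuse libraries by which these genes were selected and are no independent support. Among all 991 genes lower in zQ175, 305 had no overlap and 822 were lower in all 3 mice. Against Estop in place of DBD, 34 of the 36 were lower. That comparison shares the nZFP libraries, and in it 7.11% of all genes were lower and 8.4% higher. The interaction of virus and genotype passed for 2 of the 36, Arpp21 and Gpx6, and 24 were not called for genotype. Nap1l3, a nucleosome assembly protein of neurons on the X chromosome, had 7.85 to 21.7 CPM (median 14.0) in zQ175 nZFP and 43.5 to 55.2 CPM (median 51.0) in zQ175 DBD libraries, with a log2 fold change of -1.76 (SE 0.19, adjusted p = 3.5e-09) and of -1.82 in WT. Tceal6, a transcription elongation factor-like gene also on the X chromosome, had 16.2 to 40.2 CPM in zQ175 nZFP and 83.7 to 111 CPM in zQ175 DBD libraries (-1.64, and -1.81 in WT). Impdh1, the rate-limiting enzyme of guanine nucleotide synthesis, had 17.4 to 34.1 CPM in zQ175 nZFP and 52.6 to 63.4 CPM in zQ175 DBD libraries (-1.05, and -1.30 in WT). Atp2b3, a plasma membrane calcium pump, had 29.2 to 46.1 CPM in zQ175 nZFP and 74.4 to 83.4 CPM in zQ175 DBD libraries (-0.99, and -0.91 in WT). The kinase gene Stk32c (-0.99), the transcription cofactor Dach1 (-0.69), the adhesion gene Opcml (-0.67) and Kcnn3, a calcium-activated potassium channel (-0.78), fell without overlap, and so did the scarce transcripts Gsc2 (-2.86) and Gab3 (-1.60).

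Arpp21 combined both patterns. It had 366.9 to 599.9 CPM in zQ175 nZFP and 804.1 to 1003 CPM in zQ175 DBD libraries, and averaged 717 ± 229 CPM in WT nZFP and 1894 ± 113 CPM in WT DBD libraries (SD, n = 8 each). The fall was -0.83 in zQ175 (SE 0.12) and -1.42 in WT (SE 0.11), and the difference of 0.59 between them passed (adjusted p = 0.030). Klf14 and Mkrn3 were the 2 of the 36 genes that were not lower against Estop. Klf14, a zinc finger factor, had 0.311 to 0.658 CPM in nZFP and 1.10 to 2.93 CPM in DBD libraries (-2.10, adjusted p = 7.9e-08), while zQ175 Estop libraries averaged 0.217 CPM. The nZFP level of Klf14 was 1.05 higher than Estop on the log2 scale. Mkrn3, an imprinted ubiquitin ligase gene, averaged 1.23 CPM under Estop, beside 0.887 to 1.60 CPM in nZFP and 1.40 to 3.67 CPM in DBD libraries (-1.13).

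**Figure D5:**
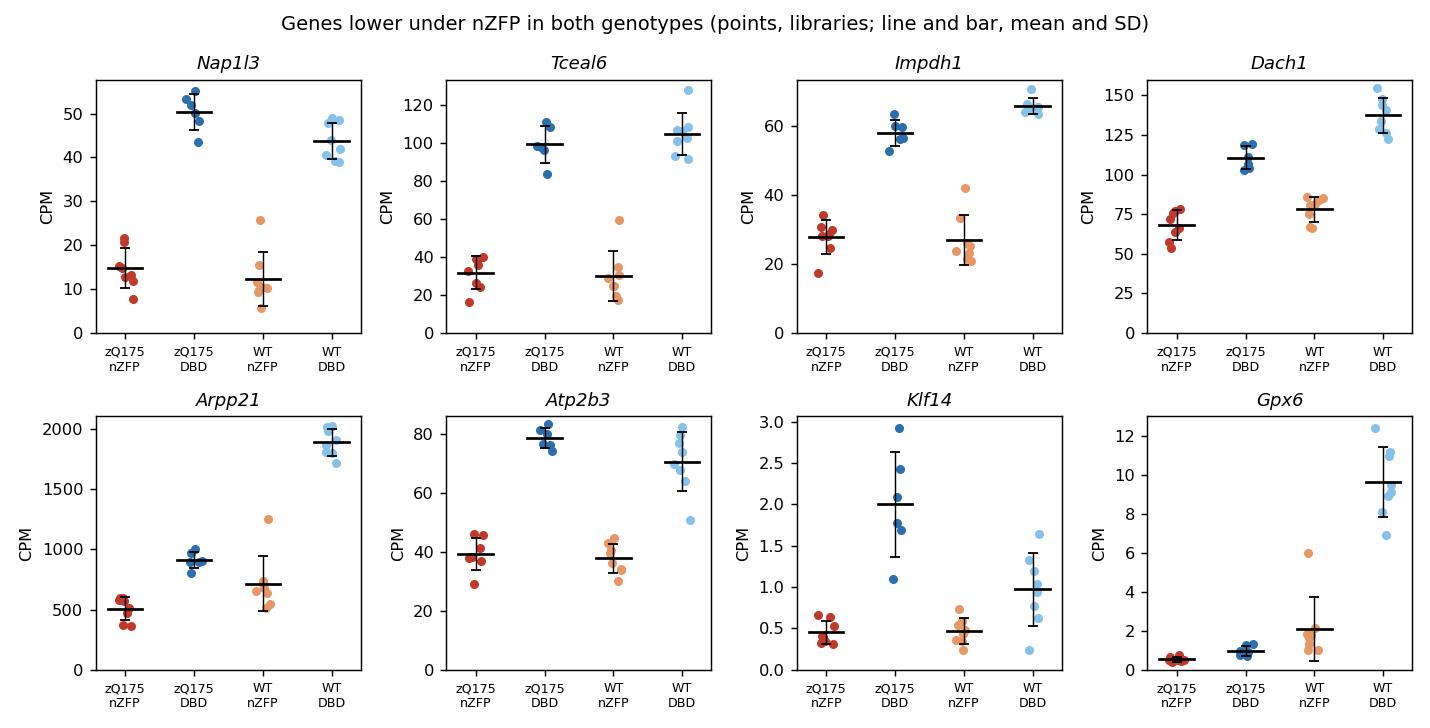
CPM of 8 of the 36 genes lower under nZFP in both genotypes, with zQ175 nZFP, zQ175 DBD, WT nZFP and WT DBD from left to right; points are libraries, lines and bars mean and SD. For Nap1l3, Tceal6, Impdh1, Dach1, Arpp21 and Atp2b3 every zQ175 nZFP library is below every zQ175 DBD library, whereas Gpx6 is near 1 CPM or below in both zQ175 groups.

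Since nZFP is directed at CAG repeats, runs of CAG were looked up in these genes. The transcript window was chosen after the data were seen. The motif was CAG in direct succession, or CTG for the other strand, in the first 1000 bases of any GENCODE M21 transcript of the gene; longer runs contain the shorter ones. Runs of 5 or more units occurred in 10 of the 36 genes lower in both genotypes (27.78%), in 2 of the 11 higher in both genotypes (18.18%), in 18 of 951 genes lower in zQ175 and not called lower in WT (1.89%), in 34 of 1171 genes higher in zQ175 (2.90%) and in 335 of all 15618 genes with a transcript (2.14%). At 3 or more units the shares were 44.44% of the 36 lower and 45.45% of the 11 higher genes, and 21.28% of all genes. In promoters (RefSeq, GRCm38.p6, 250 bases before to 50 after the start), CAGCAGCAG or CTGCTGCTG occurred in 4 of the 23 lower genes with a promoter in the table (17.39%), in 1 of 9 of the higher genes (11.11%) and in 282 of 11837 of all genes (2.38%). Normal mouse Htt has 4 units in a row in this reference. The following stretches of 30 bases, from the transcript strand of GRCm38, show the runs (in capitals) of genes that fell in both genotypes, with Htt for comparison. A match describes these letters and does not show that the protein binds there.
Nap1l3, coding, chrX:122396808-122396837, minus strand: tagCAGCAGCAGCAGCAGCAGCAGCAGtag
Kcnn3, coding, chr3:89520663-89520692, plus strand: gtcgCAGCAGCAGCAGCAGCAGCAGtcgca
Dach1, coding, chr14:98168885-98168914, minus strand: cagtagCAGCAGCAGCAGCAGCAGtagcag
Gsc2, coding, chr16:17914796-17914825, minus strand: cttgcgcCTGCTGCTGCTGCTGcaacccgc
Tceal6, 5′ UTR, chrX:135210626-135210655, minus strand: ctagtcCTGCTGCTGCTGCTGCTGcggata
Acsl1, 5′ UTR, chr8:46471081-46471110, plus strand: cccggccCTGCTGCTGCTGCTGcaacgccg
Htt, coding, chr5:34761958-34761987, plus strand: cagcagcaaCAGCAGCAGCAGccaccgccg
The runs have 8 units in Nap1l3, 7 in Kcnn3, 6 in Dach1 and Tceal6, and 5 in Gsc2 and Acsl1. Gab3 has the longest of the set with 19 units in its 5′ UTR, and Nrg2, Brdt and Gm5124 also have 6 or 7. The falls of these genes were not ordered by the length of the run: Gsc2 with 5 units had -2.86, Gab3 with 19 had -1.60 and Kcnn3 with 7 had -0.78, while Impdh1 (4 units) and Atp2b3 (3 units) fell by 1.05 and 0.99.

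Among the 11 genes higher in both genotypes, Necab2, a neuronal calcium-binding protein, had 264 to 305 CPM in zQ175 nZFP and 162 to 200 CPM in zQ175 DBD libraries (0.70, SE 0.06, adjusted p = 2.2e-12) and rose by 0.41 in WT; the difference between genotypes passed (0.29, adjusted p = 0.021). Zcwpw1, a histone reader (0.88, and 0.48 in WT), Cdhr1 (0.65 and 0.39) and Jph4, which ties the plasma membrane to the endoplasmic reticulum (0.44 and 0.16), rose as well. P2ry1 had 19.4 to 23.6 CPM in zQ175 nZFP and 10.7 to 16.7 CPM in zQ175 DBD libraries without overlap (0.61, adjusted p = 0.030, and 0.25 with the block).

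Differences between genotypes in the response to nZFP were called for 630 genes, 452 with a higher value in zQ175 (2.87%) and 178 with a lower one (1.13%). Ddit4l, Hrk and the kinase gene Rps6ka4 had the smallest p on the higher side. Rps6ka4 had 68.9 to 76.8 CPM in zQ175 nZFP and 39.8 to 51.2 CPM in zQ175 DBD libraries (0.66), against -0.11 in WT (difference 0.77, adjusted p = 3.3e-10). On the lower side, Stmn2, a microtubule regulator of growing axons, had 83.3 to 98.5 CPM in zQ175 nZFP and 121 to 144 CPM in zQ175 DBD libraries (-0.51), against 0.0041 in WT, where all 3 groups averaged 69.4 to 70.5 CPM. Ipcef1 had 6.56 to 8.41 CPM in zQ175 nZFP and 10.6 to 12.6 CPM in zQ175 DBD libraries (-0.66). A pair of genes, singled out after their values were seen, passed in opposite directions: Lmo2, a transcriptional cofactor, rose by 0.42 in zQ175, with 51.23 to 59.17 CPM in nZFP and 39.24 to 42.57 CPM in DBD libraries, and fell by 0.25 in WT, and the G-protein subunit gene Gng4 fell by 0.32 in zQ175 and rose by 0.29 in WT. Without the library labelled WT DBD replicate 6, 402 genes had a higher and 146 a lower interaction, and in WT alone 26 were higher and 57 lower.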

How the data were processed

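RNA was polyA-selected and sequenced as stranded paired-end libraries (NEB Next Ultra), per the labels' protocols. The deposited count table holds expected counts per gene from RSEM on GRCm38, per the submitters' processing notes, and 90.3% of its values are whole. For versions, the annotation release and the strand setting, the sources used here name none. The deposited table named for FPKM sums to 1000000 in each library, so its values were read as TPM, which the authors computed with a length for each gene and library. Gene IDs were matched to symbols for 40254 of 41129 entries, and sequences and coordinates come from GRCm38 with GENCODE M21 and from the RefSeq promoter table.

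Expected counts were rounded. edgeR 4.0.16 (R 4.3.3; limma 3.58.1) fitted 45 libraries of the 6 groups together with TMM scaling, filterByExpr and sex as a covariate, and quasi-likelihood F-tests were adjusted by Benjamini-Hochberg over the 15722 genes, with calls at an adjusted p under 0.05. On simulated counts for this comparison, with 100 genes at each fold, 46% of changes of 1.25-fold and 69% of changes of 1.5-fold were recovered, and 5.74% of the calls were false. The changed genes were a smaller share of those tested than the 13.8% called in the data. Simulated libraries were drawn without shared mice, so recovery in the data may differ.

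Replicates 5, 6 and 7 of nZFP and DBD come from the same animals, which gives the pairing; the correlations of their deviations from the group means were 0.108, 0.009 and 0.204. Fits with the mouse as a block also used the hemispheres paired across other viruses. Alternatives were leaving out each library, keeping DBD replicate 3, Estop in place of DBD, DESeq2 1.42.0, upper-quartile scaling, other filters and other covariates.

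The members and lists were chosen with earlier results of these data known. Genes were named by rule: Htt, the 12 largest changes in each direction (mean of at least 1 CPM, the same direction in all 3 mice, no predicted-gene names), the 2 members of each list with the smallest p, the strongest genes in both genotypes and the 3 with the smallest interaction p per direction. A few genes that the rule names are counted but not reported here. Other members of the lists are named as examples of their counts.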

Additional observations from a re-analysis of the deposited data

Results flagged for a closer look

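Among 212 groups of libraries tested for a single value far from the others (Dixon's test, which flags about 1 in 20 groups by chance), 15 had one. In nZFP libraries these were Igha in replicate 4 (30.9 CPM), Wnt4 in replicate 7 (4.55 CPM), Drd1 in replicate 6 (209 CPM), Onecut1 in replicate 8 (0.566 CPM), Bst2 in replicate 7 (10.7 CPM), Kcnj8 in replicate 3 (2.71 CPM), Dynlrb2 in replicate 3 (0.298 CPM) and Nptx1 in replicate 1 (31.6 CPM). In DBD libraries they were Igha in replicate 4 (0.139 CPM), Sec14l3 in replicate 5 (2.26 CPM), Tmprss6 in replicate 6 (0.832 CPM), Grm4 in replicate 7 (85.6 CPM), Aspa in replicate 4 (19.5 CPM), Tagln in replicate 5 (5.05 CPM) and Dnah11 in replicate 1 (1.77 CPM).

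The response to nZFP differed between zQ175 and WT striata for 50 of the 106 named genes in edgeR's test of the interaction, beside 4.01% of all genes tested. Most of these genes were named for a large change or a small p in zQ175 or for the interaction itself, so the count is no result about them. The difference, zQ175 minus WT in log2 fold change, was positive for most. Among the largest rises it was 2.24 for Abhd11os, 1.56 for Sec14l3, 1.78 for Tmem114, 1.10 for Tmprss6, 1.28 for Cpne9, 1.83 for Vwa7, 1.32 for Wnt4, 1.80 for Ffar3, 1.56 for Ddit4l and 1.27 for Fst. Among genes of striatal neurons and their signalling it was 0.58 for Adcy5, 1.00 for Scn4b, 0.48 for Drd1, 0.67 for Adora2a, 0.90 for Penk, 0.52 for Itpr1, 0.29 for Necab2, 0.42 for Camk4, 0.28 for Cplx2 and 0.25 for Meis2. Among channels, receptors and synaptic genes it was 0.41 for Kcnh3, 0.45 for Kcnj4, 0.34 for Cacng4, 0.32 for Grm4, 0.48 for Gabrd, 0.62 for Syt2 and 0.56 for Homer1. It was 1.03 for Epop, 0.23 for Add1, 0.43 for Adra2c, 0.97 for Ptpn7, 1.02 for Inhba, 0.27 for Srebf2, 0.26 for Cyp46a1 and 0.95 for Cdkn1a. Of glial and immune lists it was 0.52 for Fbln5 and 0.56 for Cd4, and of the remaining genes 1.08 for Hrk and 0.77 for Rps6ka4.

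A negative difference was found for several genes, among them Shox2 (-1.96), Dsg2 (-1.44), Adamtsl2 (-1.24), Sfmbt2 (-1.02), Fam196b (-0.98), Stmn2 (-0.52), Pcdhb20 (-0.54), Pcdhb9 (-0.36), Ipcef1 (-0.93) and Gng4 (-0.61).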

How the results depend on the processing

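Counts of genes called by nZFP minus DBD in zQ175 moved by over 1.5 times under 3 alternatives. With DBD replicate 3 kept in, 3633 genes were called and 2254 were lower. With the mouse as a replicate block, 1382 were called and 566 were lower, and 1225 of the 2165 calls (56.6%) kept their call and direction. With only the 3 mice that received both viruses, 681 were called, 455 higher and 226 lower. Without each library in turn, 1640 to 2219 were called, 938 to 1221 higher and 677 to 1002 lower, and a block by replicate number, which pairs different mice for numbers 1, 2 and 4, gave 1197 higher and 993 lower. DESeq2 called 1318 higher and 1012 lower, and 2155 of the 2165 calls were among them in the same direction. Of 90 called named genes, 13 lost the call with the mouse block, 22 with the 3 mice and 6 with Estop in place of DBD. Of the named genes without a call, 5 gained one with Estop, Htt among them (-0.53), and 2 with the 3 mice. Htt.HD stood at 20.8% to 49% of DBD without each library in turn, an alternative chosen after seeing the data. Directions reversed with DBD replicate 3 kept in for Ndufs3 (-0.19), Ndufa5 (-0.41), Rps2 (-0.03) and Tyrobp (-0.021), and with Estop in place of DBD for Klf14 (1.05), Mkrn3 (0.043), Dnajb2 (0.007), Aspa (0.046) and Ugt8a (0.016). In WT, 26 genes were higher without the library labelled DBD replicate 6. CAG runs in promoters were found in 52.17% of the genes lower in both genotypes at 2 units and in 8.7% at 4 units. The cause of these changes was not tested, beyond the smaller number of libraries where some were left out.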
